A study of Homo sapiens with 6 samples.

Results

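The ubiquitin ligase RNF26, the proteins that work with it and the DNA-sensing proteins CGAS and STING1 were followed at the RNA level in A498, a human line of clear cell renal carcinoma. The 10 genes were taken by name from the deposited table of 61860 genes: RNF26, its conjugating enzyme UBE2J1, the vesicle adaptors TOLLIP, TAX1BP1 and EPS15, the membrane partners TMEM43, ENDOD1 and TMED1, and STING1 and CGAS. All 10 had enough counts to be tested, among 15476 tested genes. The study compared 3 control libraries (PTPRZ-nc, for which the labels give a plasmid) with 3 knockdown libraries (PTPRZ-Si, for which they give siRNA against PTPRZ1, a receptor tyrosine phosphatase). Both groups were cells of this 1 line in MEM with serum, and both are labelled with transfection and infection. The labelled plasmid and siRNA differ with the group, so any effect of them cannot be told apart from that of the knockdown. The series title states that the phosphatase acts on RNF26 and stabilizes it, which concerns the protein. These libraries measure RNA only. Nothing in the labels says that replicates were separate cultures, so p-values measure the spread between libraries, which may be technical.

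RNF26 is a RING-type E3 ligase of the endoplasmic reticulum (ER) membrane. With the ER-anchored conjugating enzyme UBE2J1 it ubiquitinates SQSTM1, a scaffold that then holds vesicles near the nucleus through their ubiquitin-binding adaptors, and the deubiquitinase USP15 releases them. RNF26 has also been placed in a membrane complex with TMEM43, ENDOD1, TMED1 and TMEM33, and it ubiquitinates STING1. CGAS detects DNA in the cytosol and makes the dinucleotide that activates STING1, which leaves the ER, passes to the Golgi and switches on the kinase TBK1 and the transcription factor IRF3.

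The libraries held 13726908 to 21469746 counts each, and their scaling factors ran from 0.9936 to 1.009. PTPRZ1 had 0 counts in all 6 libraries, so the knockdown could not be checked by its target, and every direction rests on the labels. Within groups, control replicate 2 differed more from the other controls (chi-square per degree of freedom of 5.13 and 6.12) than those differed from each other (2.65), and knockdown pairs gave 2.16 to 3.49. Markers of kidney epithelium were mixed. For these markers CPM are counts scaled to the library total, and elsewhere below the scaling factors enter as well. PAX8, a transcription factor of renal epithelium, was at 288 to 329 CPM in the controls and 530 to 577 CPM in the knockdown. The keratin KRT8 was at 1170 to 1240 and 1300 to 1320 CPM. VIM, a filament protein of mesenchymal and renal carcinoma cells, was at 1130 to 1230 and 751 to 810 CPM. Of 6 markers of proximal tubule and kidney carcinoma, PAX8 (log2 fold change 0.83), PAX2 (0.37) and CDH6 (1.06) rose, VIM (-0.58) fell, and CA9 and NNMT did not pass. Of 4 epithelial markers KRT8, KRT18 and KRT19 rose, and EPCAM had 19 counts over all libraries. Of 4 fibroblast markers COL1A1 (-0.67) fell from 31.3 to 41.2 CPM to 20.9 to 23.3 CPM, and COL1A2, DCN and LUM had 3, 4 and 0 counts. Leukocyte markers summed to at most 1.25 CPM, with PTPRC and CD3E at 0 counts, and endothelial markers to at most 1.62 CPM. Identity markers thus moved with the groups, and their part in the results below was not tested. The promoters below show the DNA in front of RNF26, the 1 gene of the 10 that was called, beside those of UBE2J1, its conjugating enzyme, and TMEM43, a membrane partner, neither of which was called. The sequences are RefSeq's on build GRCh38.p14, 5′ to 3′ on the gene's strand, with 250 bases before and 50 after the start. Capitals mark CCAAT (the letters bound by NF-Y), AAGATGGC (found in YY1 sites), GGGCGG (a GC box) and GCATGCGC (found in NRF1 sites), on either strand.

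RNF26, chr11:119334277-119334576, plus strand: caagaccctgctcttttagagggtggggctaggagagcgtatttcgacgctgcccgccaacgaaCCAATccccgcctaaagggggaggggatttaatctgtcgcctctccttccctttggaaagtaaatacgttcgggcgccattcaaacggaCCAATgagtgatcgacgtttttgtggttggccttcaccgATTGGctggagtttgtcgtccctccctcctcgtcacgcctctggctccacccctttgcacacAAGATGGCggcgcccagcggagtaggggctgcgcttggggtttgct
UBE2J1, chr6:89352673-89352972, minus strand: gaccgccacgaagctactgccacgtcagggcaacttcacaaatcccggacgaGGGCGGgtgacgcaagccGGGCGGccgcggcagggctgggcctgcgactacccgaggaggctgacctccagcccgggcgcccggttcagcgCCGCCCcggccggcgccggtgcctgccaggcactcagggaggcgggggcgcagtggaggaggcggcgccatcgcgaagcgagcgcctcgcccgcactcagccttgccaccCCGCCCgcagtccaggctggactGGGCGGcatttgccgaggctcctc
TMEM43, chr3:14124802-14125101, plus strand: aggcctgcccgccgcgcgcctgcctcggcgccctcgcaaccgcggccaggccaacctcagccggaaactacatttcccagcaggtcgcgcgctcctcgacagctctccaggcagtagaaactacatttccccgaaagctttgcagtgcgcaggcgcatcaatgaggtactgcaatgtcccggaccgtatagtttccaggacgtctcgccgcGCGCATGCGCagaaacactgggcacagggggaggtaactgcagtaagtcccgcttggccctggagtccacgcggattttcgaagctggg

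The RNF26 promoter held 3 CCAAT boxes, a number reached by 3.26% of 35116 RefSeq promoters, and 1 AAGATGGC, which 2.89% hold. It had no GGGCGG. The UBE2J1 promoter held 5 GGGCGG, and 9.06% of promoters hold 4 or more. The TMEM43 promoter held GCATGCGC on both strands at 1 overlapping place, and 3.05% of promoters hold it at all. The other letters searched, CGGAAG, TGACGTCA and TATAAA, were in none of these 3 windows. A match describes the letters only. For 8 of the 10 genes the table held a promoter, with CGAS and STING1 not among them, and the 8 differed in base composition, from 33% G and C in 1 of the 2 TAX1BP1 windows to 77.3% in 1 of the 2 EPS15 windows.

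RNF26 RNA was lower in the knockdown. Its level was 49.71, 49.25 and 47.9 CPM in the control libraries and 39.32, 38.79 and 45.19 CPM in the knockdown libraries. All 3 knockdown libraries lay under all 3 controls, and knockdown replicate 3 lay nearest to them. RNF26 (ENSG00000173456, chromosome 11 from 119334527 to 119337313, plus strand, GRCh38, a gene of 1 exon) thus went from 48.95 ± 0.94 to 41.1 ± 3.55 CPM (SD, n = 3 each), a change of -15.8% with a 95% interval from -24% to -6.83% (log2 fold change -0.25, edgeR adjusted p = 0.0128). The call was lost without knockdown replicate 1 (edgeR adjusted p = 0.061) or knockdown replicate 2 (edgeR adjusted p = 0.0697), and the log2 fold change without either was -0.22 and -0.21. An antisense gene shares 507 of RNF26's 2787 exon bases (18.2%) and had 0 counts in these libraries. Strand was not used, and the counting program's default then leaves out read pairs over shared bases. The RNF26 level may therefore read too low, and the part of this overlap in its change was not tested.

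RNF26 was the only 1 of the 10 genes that was called (edgeR adjusted p no larger than 0.05), against 27.4% of all tested genes called in either direction and 13.4% called lower. None of the 10 was called higher, against 14.0% of all genes. At an unadjusted p of at most 0.05 the count was 3 of 10 (RNF26, TAX1BP1 and TMEM43), against 37.6% of all tested genes. The groups lay apart, with no overlap, for 4 of the 10: RNF26 and CGAS with the knockdown lower and TAX1BP1 and TMEM43 with the knockdown higher, against 40.8% of all tested genes. The median log2 fold change of the 10 was 0.01, and the median size of change was 0.09, against 0.18 for all tested genes. The 10 genes lay between the percentiles 41.3 and 91.4 of level among the tested genes. Sizes of change were not compared at like level. RNF26 itself was no extreme: 1478 genes were called lower by as much or more.

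**Figure D1:**
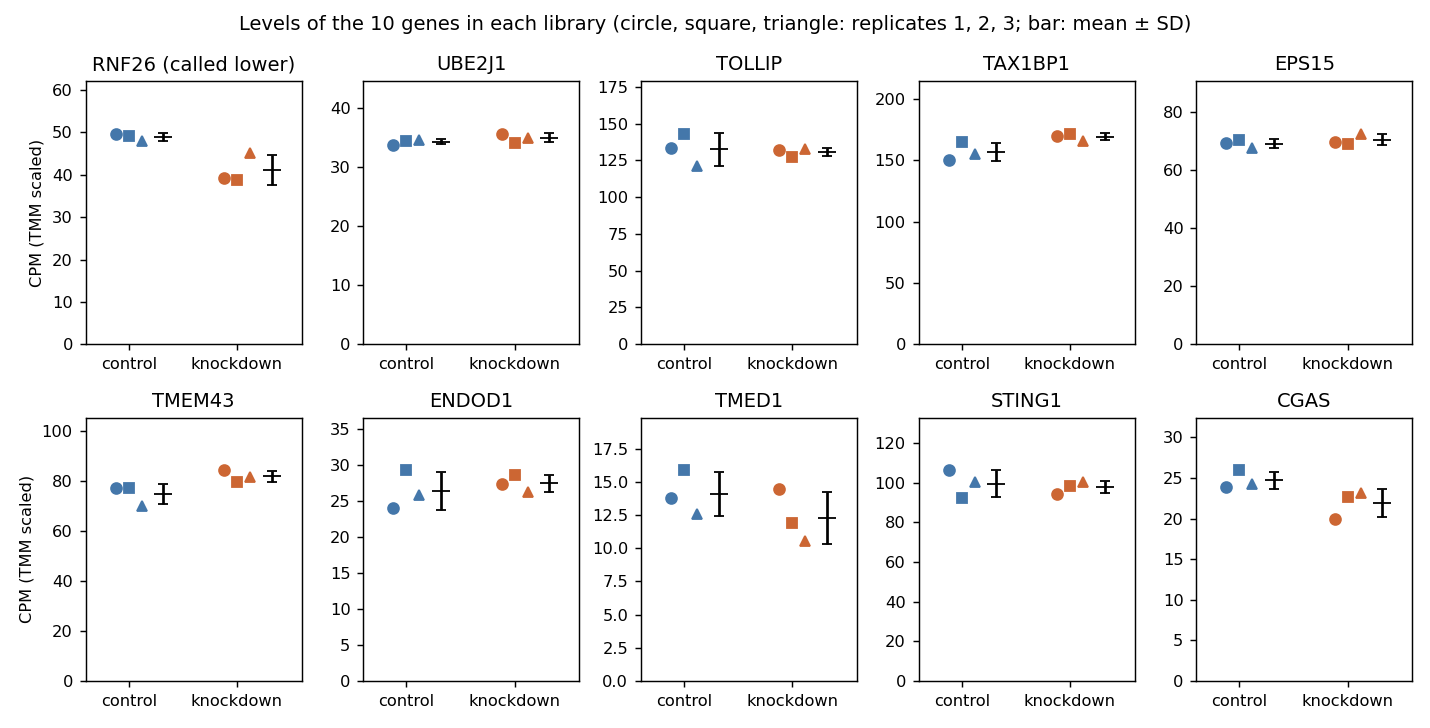
Level of each of the 10 genes in CPM (vertical axes, each starting at 0) in the 3 control libraries (blue) and 3 knockdown libraries (orange), with the mean ± SD beside them. The RNF26 knockdown libraries, at 38.79 to 45.19 CPM, lie under the controls at 47.9 to 49.71 CPM, and for UBE2J1, TOLLIP, EPS15, ENDOD1, TMED1 and STING1 the groups overlap.

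UBE2J1, the conjugating enzyme (chromosome 6 from 89326625 to 89352848), was at 33.82, 34.49 and 34.57 CPM in the controls and at 35.69, 34.18 and 35.04 CPM in the knockdown. The 6 values lay close together and the groups overlapped. The change was 1.89% with a 95% interval from -7.42% to 12.1% (edgeR adjusted p = 0.806), so a fall of RNF26's size lies outside the interval. UBE2J1 had the smallest spread between control libraries of the 10 genes per length, at 7.994 ± 0.0958 CPM per kb of exons (SD, n = 3). Counting error alone is 4.6% in its lowest library of 472 counts, so this small spread is not taken as a trait of the gene.

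The adaptors are proteins of vesicles and endosomes that bind ubiquitin. TOLLIP, an adaptor of endosomes and autophagy (chromosome 11 from 1274371 to 1309654), was at 133.5, 143.2 and 120.9 CPM in the controls and 132.3, 127.6 and 132.7 CPM in the knockdown. The controls spread more widely than the knockdown libraries and enclosed them (change -1.13%, 95% interval -8.92% to 7.33%, edgeR adjusted p = 0.868). EPS15, a clathrin adaptor of endocytosis (chromosome 1 from 51354263 to 51519328), was at 69.1, 70.45 and 67.64 CPM in the controls and 69.64, 68.88 and 72.46 CPM in the knockdown. Its groups overlapped as well (change 1.94%, 95% interval -5.63% to 10.1%, edgeR adjusted p = 0.749).

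TAX1BP1, an autophagy receptor (chromosome 7 from 27739331 to 27844564), was the most counted of the 10. It was at 150.4, 164.6 and 154.8 CPM in the controls and 170.1, 171.7 and 166.1 CPM in the knockdown. The groups lay apart by a narrow margin, between control replicate 2 and knockdown replicate 3. The log2 fold change of 0.11 (SE 0.0461) did not pass (edgeR adjusted p = 0.0799), and its 95% interval of 1.11% to 15.7% is not adjusted for the number of genes. Without control replicate 2 TAX1BP1 passed (log2 fold change 0.15, edgeR adjusted p = 0.00918), and it passed when the test was limited to genes averaging 5 CPM or more (edgeR adjusted p = 0.0447). Strand was not used, and TAX1BP1 shares 415 of 9165 exon bases with JAZF1 on the other strand (log2 fold change of JAZF1 0.38, edgeR adjusted p = 0.00532). Read pairs over shared bases are left out by the counting program's default. Whether this overlap bears on the TAX1BP1 value was not tested.

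Among the membrane partners, TMEM43, a protein of the ER and inner nuclear membrane (chromosome 3 from 14124940 to 14143679), was at 77.28, 77.02 and 70.09 CPM in the controls and 84.14, 79.68 and 81.4 CPM in the knockdown. The knockdown libraries all lay above the controls, with control replicate 3 lowest. The log2 fold change of 0.13 (SE 0.055) did not pass (edgeR adjusted p = 0.0965), and without control replicate 2 it was 0.15 with an edgeR adjusted p of 0.0474. TMEM43 shares 462 of 3572 exon bases (12.9%) with a protein-coding gene on the same strand that had 96 counts. Whether this overlap bears on the TMEM43 value was not tested. ENDOD1, named for an endonuclease domain (chromosome 11 from 95089810 to 95132645), was at 24.01, 29.23 and 25.76 CPM in the controls and 27.33, 28.61 and 26.29 CPM in the knockdown. The knockdown values fell within the range of the controls (change 4.45%, 95% interval -7.52% to 18%, edgeR adjusted p = 0.63).

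TMED1, a p24-family protein of transport between ER and Golgi (chromosome 19 from 10832438 to 10836318), was the least counted of the 10 genes. It was at 13.79, 15.86 and 12.59 CPM in the controls and 14.43, 11.9 and 10.57 CPM in the knockdown. The groups overlapped through knockdown replicate 1, and the change of -13% had the widest interval of the 10, from -27.5% to 4.54% (edgeR adjusted p = 0.261). Its lowest library held 207 counts, for which counting error alone is 6.95%. TMED1 shares 776 of its 1513 exon bases (51.3%) with DNM2 on the other strand, a gene with 82175 counts that rose (log2 fold change 0.46, edgeR adjusted p = 4.35e-08). Read pairs over shared bases belong to both genes when strand is not used, and by the counting program's default such pairs are left out. The TMED1 level is therefore uncertain, and the part of DNM2 in its change was not tested.

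STING1 (chromosome 5 from 139475534 to 139482935) was at 106.2, 92.22 and 100.2 CPM in the controls and 94.25, 98.45 and 100.2 CPM in the knockdown. The knockdown libraries lay within the range of the controls. The change was -1.98% with a 95% interval from -9.64% to 6.34% (edgeR adjusted p = 0.753). CGAS (chromosome 6 from 73413515 to 73452276) was at 23.89, 25.94 and 24.32 CPM in the controls and 19.94, 22.66 and 23.2 CPM in the knockdown. All 3 knockdown libraries lay under the controls, with knockdown replicate 1 lowest, yet the log2 fold change of -0.16 (SE 0.0831, 95% interval -0.34 to 0.01) did not pass (edgeR adjusted p = 0.162). The CGAS estimate reached 65.8% of the RNF26 change on the log2 scale, and no test of the difference between the 2 genes was made.

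**Figure D2:**
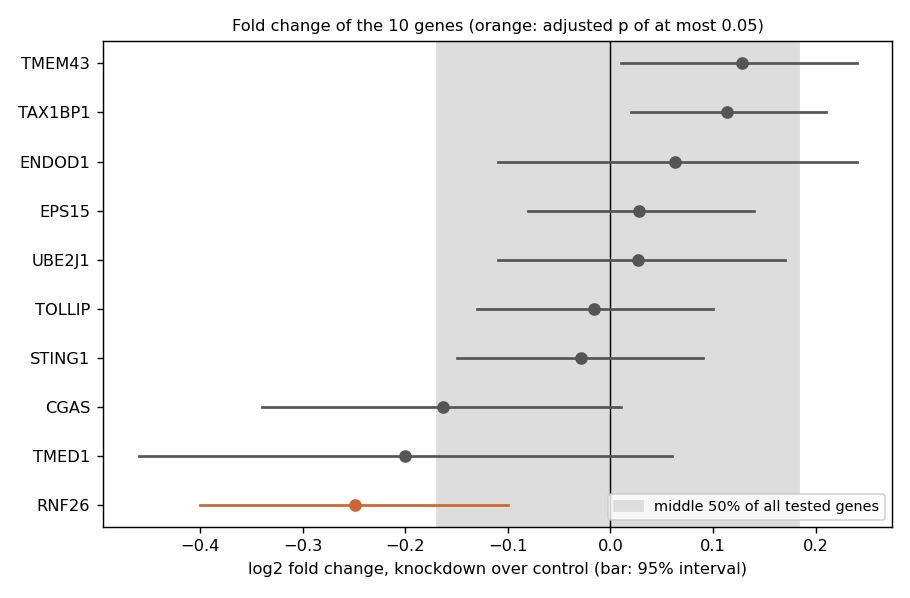
Log2 fold change of knockdown over control (horizontal axis) for the 10 genes, with 95% intervals as bars and the middle 50% of all tested genes (-0.17 to 0.18) shaded. RNF26, at -0.25, has an interval that ends at -0.10, while those of STING1, TOLLIP, EPS15, UBE2J1, ENDOD1, TMED1 and CGAS include 0.

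Ratios of raw counts within a library do not depend on library scaling. Control libraries had RNF26 to STING1 count ratios of 0.468, 0.534 and 0.478, and knockdown libraries had 0.417, 0.394 and 0.451. Against UBE2J1 the ratios were 1.47, 1.43 and 1.39 for controls, and for the knockdown 1.1, 1.13 and 1.29. For 6 of the 9 ratios of RNF26 to another member, all knockdown libraries were under all controls. The other 3 were the ratios to CGAS, TMED1 and ENDOD1, where the groups overlapped. Against CGAS, control libraries had 1.98 ± 0.0918 and knockdown libraries 1.88 ± 0.144 (SD, n = 3 each). No test was made of these ratios, and they share the RNF26 counts. Since RNF26 itself lay apart between the groups, its ratio to a steady gene tends to do so too. The ratios are therefore no separate evidence of its fall, and the share over all tested genes was not taken.

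Per kb of exons, STING1 had the highest mean level of the 10 genes in the controls, 25.86 ± 1.82 CPM per kb (SD, n = 3). Its lowest control library (23.95) lay barely above the highest of TOLLIP (23.94). TOLLIP (22.16 ± 1.87) and TMEM43 (20.94 ± 1.14) followed and overlapped each other, and so did RNF26 (17.57 ± 0.337) and TAX1BP1 (17.09 ± 0.795). TMED1 (9.304 ± 1.09) and EPS15 (9.282 ± 0.189) could not be ordered, UBE2J1 came next (7.994 ± 0.0958), and CGAS (5.949 ± 0.26) and ENDOD1 (5.619 ± 0.567) shared the lowest place. Of the 9 neighbouring pairs in this order 4 overlapped between control libraries. In the knockdown RNF26, at 14.75 ± 1.28 CPM per kb, came after TAX1BP1 at 18.47 ± 0.314. Lengths are all exons of a gene in GENCODE 29 joined, so a gene with long, rarely used exons reads too low. Transcript counts of 13 for TAX1BP1 and TOLLIP and 15 for STING1 make this possible. Exon bases that RNF26, TMED1, TAX1BP1 and CGAS share with genes on the other strand also stay in their lengths. So do the 12.9% of exon bases that TMEM43 shares with a gene on its own strand. The levels of these genes may read too low, and the order without the shared bases was not tested.

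**Figure D3:**
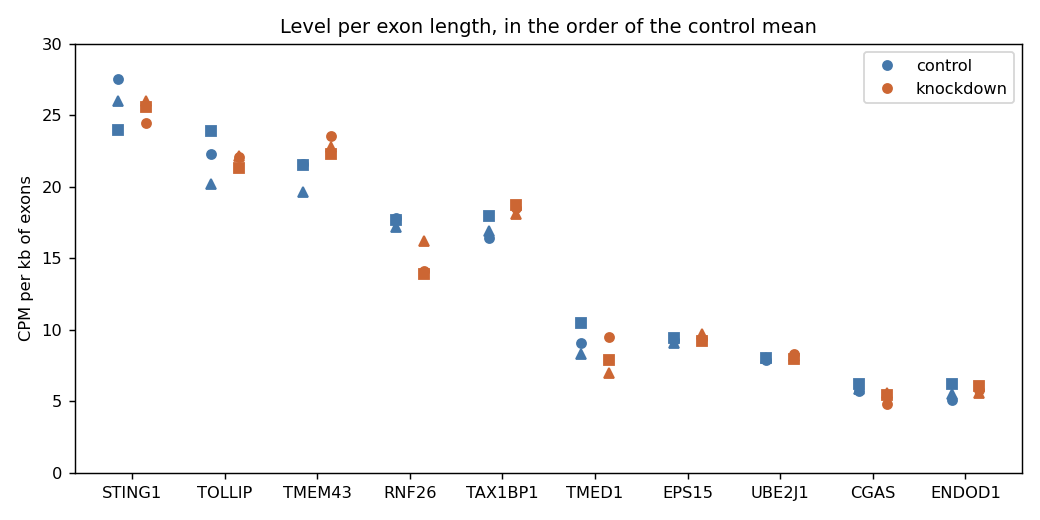
Level per exon length (CPM per kb, vertical axis from 0) of the 10 genes in each control (blue) and knockdown (orange) library, ordered by the control mean, with replicates 1, 2 and 3 as circles, squares and triangles. STING1 leads at 23.95 to 27.58 CPM per kb in the controls, and CGAS and ENDOD1 are lowest at 5.122 to 6.244.

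The tested genes whose levels over the 6 libraries were most like those of RNF26 were LINC00324 (Pearson r = 0.9964 of log2 CPM), KCNH8 (r = 0.9962), KIAA2013 (r = 0.9916), SEC14L1P1 (r = 0.9898) and GRAMD4 (r = 0.9883). These values were chosen as the highest of all genes over 6 points that hold 1 group difference, and LINC00324, KCNH8 and SEC14L1P1 had mean levels of 0.5735, 1.055 and 1.157 CPM. For STING1 they were YBX3P1 (r = 0.9935), GNG13 (r = 0.9923), ALOX5AP (r = 0.9910), MOSPD3 (r = 0.9909) and CKMT2 (r = 0.9855), with MOSPD3 alone above 5 CPM on average. Among the other 9 members, CGAS had the highest value with RNF26 (r = 0.81) and TAX1BP1 the lowest (r = -0.80). STING1 and RNF26 had r = 0.31.

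Genes that act beside RNF26 were taken from 9 lists of 165 genes, of which 151 were tested. In all, 22 rose, 27 fell and 102 did not pass, so 32.5% were called, against 27.4% of all tested genes. Of the proteins tied most closely to RNF26, its substrate SQSTM1 rose. It was at 1130, 1284 and 1076 CPM in the controls and 1298, 1329 and 1335 CPM in the knockdown, with control replicate 2 close to the knockdown libraries (log2 fold change 0.18, SE 0.0487, edgeR adjusted p = 0.0093). Without control replicate 3 SQSTM1 did not pass (0.13, edgeR adjusted p = 0.0549). USP15, the opposing deubiquitinase, was at 35.46 ± 3.15 and 38.14 ± 1.03 CPM (SD, n = 3 each, edgeR adjusted p = 0.31). TMEM33, the remaining partner of the membrane complex, was at 92.12 ± 2.6 and 86.01 ± 4.54 CPM (SD, n = 3 each, edgeR adjusted p = 0.178).

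Of 20 tested genes of vesicle positioning, 6 rose, 3 fell and 11 did not pass (median log2 fold change 0.05, against 0.00 for all tested genes). Thus 45% were called, against 27.4% of all tested genes, and the difference was not tested. RAB7A, the small GTPase of late endosomes, rose from 313.9 ± 26 to 368.2 ± 9.68 CPM (SD, n = 3 each). VAPA (0.18) and VAPB (-0.26), paired ER proteins of membrane contact sites, were called in opposite directions. The dynein heavy chain DYNC1H1 rose (0.15), while its dynactin partners DCTN1 (-0.13) and DCTN2 (-0.19) fell. The VAPA call was lost when control replicate 1 (edgeR adjusted p = 0.0625) or knockdown replicate 1 (0.0574) was left out, and DCTN1 did not pass without control replicate 2 or any 1 of the knockdown libraries (edgeR adjusted p of 0.0598 to 0.112). Of 22 ubiquitin receptors and endocytic adaptors, 4 rose and 4 fell (median -0.01), so 36.4% were called. EPS15L1, the paralog of EPS15, rose from 68.72 ± 3.72 to 96.41 ± 2.01 CPM (SD, n = 3 each), by 0.49 on the log2 scale (SE 0.0535, edgeR adjusted p = 3.17e-06), whereas EPS15 itself was at 0.03. OPTN, an autophagy receptor like TAX1BP1, fell (-0.31, SE 0.0443), as did the adaptor subunits AP2A1 and AP2B1 (both -0.17) and ITSN2 (-0.30), while ITSN1 (0.21) and EPN3 (0.37) rose. EPN3 did not pass with control replicate 1 (edgeR adjusted p = 0.0673) or knockdown replicate 3 (0.095) left out, nor did AP2A1 without knockdown replicate 2 (edgeR adjusted p = 0.0571).

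Of 18 tested ligases of the ER and their cofactors besides RNF26, 2 rose, 1 fell and 15 did not pass (median 0.02), so 16.7% were called, against 27.4% of all tested genes, and the difference was not tested. RNF185 rose from 126.6 ± 2.15 to 151.4 ± 2.85 CPM and MARCHF6 from 317.1 ± 3.94 to 352.7 ± 5.29 CPM (SD, n = 3 each), and RNF170 fell from 20.37 ± 0.628 to 16.76 ± 0.812 CPM. All 3 are ligases that take part in protein degradation at the ER. Without knockdown replicate 1, RNF170 and MARCHF6 did not pass (edgeR adjusted p = 0.0869 and 0.0509). Of 20 genes of ubiquitin activation and conjugation, 5 rose and 1 fell (median 0.03), so 30% were called. UBE2L3 (0.30, SE 0.0535), UBE2D3 (0.25, SE 0.0444), UBE2K (0.21, SE 0.0454) and UBE2H (0.20, SE 0.0371) rose, and the activating enzyme UBA1 fell (-0.11, SE 0.0384). UBE2J2, the ER paralog of UBE2J1, did not pass, at a log2 fold change of 0.11. The UBA1 call was lost without control replicate 1 or any 1 of the knockdown libraries (edgeR adjusted p of 0.0977 to 0.14). It was also lost without replicate 2 of both groups (edgeR adjusted p = 0.093). A change of filter alone ended it too, with no filter on low counts (edgeR adjusted p = 0.0647) or genes averaging 5 CPM or more (0.0523).

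For STING1, genes of its transport and control gave 3 higher and 3 lower of 26 tested (median -0.02). Thus 23.1% were called, against 27.4% of all tested genes. ARF1, a GTPase of Golgi and ER transport, had the clearest change, from 424.5, 390.4 and 427.9 CPM in the controls to 664.9, 691.4 and 662.2 CPM in the knockdown. The groups were far apart (log2 fold change 0.70, SE 0.0414, edgeR adjusted p = 2.04e-09). STEEP1, which promotes the exit of STING1 from the ER, fell from 36.53 ± 2.77 to 27.7 ± 1.44 CPM (SD, n = 3 each, -0.40), and YIPF5 (-0.24) fell too. The deubiquitinase USP13 rose (0.36) and USP18, itself induced by interferon, fell (-0.44). ARMH3, a Golgi protein, rose (0.21), but did not pass without control replicate 2 or 3 or any 1 of the knockdown libraries (edgeR adjusted p of 0.0807 to 0.183). Without control replicate 2, 5 genes of this list were lower. Of 8 tested p24 proteins other than TMED1, TMED9 (-0.38, SE 0.0525) and TMED8 (-0.29, SE 0.0729) fell and 6 did not pass. The median of this family was -0.05, and 25% were called.

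Of 22 tested genes of sensing and signalling around CGAS and STING1, 2 rose, 5 fell and 15 did not pass (median 0.00). Thus 31.8% were called, against 27.4% of all tested genes. TBK1 was at 54.5 ± 3.13 and 54.32 ± 3.56 CPM and IRF3 at 66.21 ± 4.95 and 62.04 ± 2.04 CPM (SD, n = 3 each, edgeR adjusted p = 0.988 and 0.313). The DNA sensor IFI16 (-0.28, SE 0.0538), the nucleotide hydrolase SAMHD1 (-0.29, SE 0.0446) and RNASEH2B, a subunit of ribonuclease H2 (-0.30, SE 0.0935), fell. RNASEH2B did not pass without control replicate 1 or 3 or knockdown replicate 1 or 2 (edgeR adjusted p of 0.06 to 0.129). LRRC8A (-0.19) fell and LRRC8D (0.32) rose, which are subunits of anion channels. LRRC8A was no longer called with control replicate 1 (edgeR adjusted p = 0.0597) or knockdown replicate 1 (0.0519) left out. The count that fell was 2 without control replicate 1, and it was 3 when control replicate 3 or either of the first 2 knockdown replicates was left out. The exporter ABCC1, which exports the dinucleotide that CGAS makes, rose from 17.18 ± 2.6 to 29.81 ± 0.648 CPM (SD, n = 3 each). Of 10 genes known as outputs of this pathway, 6 could be tested, and IFNB1, IFNL1 and CCL5 had 11, 8 and 10 counts over all libraries. IFIT1 (-0.61), ISG15 (-0.46) and IFIT3 (-0.40) fell and IL6 (0.40) rose. IFIT2 (-0.09) and CXCL10 (0.37) did not pass (edgeR adjusted p = 0.314 and 0.534). Of the 6 tested outputs 66.7% were thus called, and the difference from all tested genes was not tested. Outputs of this pathway also answer to routes that do not use STING1. The labelled plasmid of the controls and siRNA of the knockdown differ with the groups too, and their part in these values cannot be told apart.

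TMEM43 also belongs to the inner nuclear envelope. Of 13 tested genes of that membrane and its lamina, 0 rose and 5 fell (median -0.05). In all, 38.5% of this list were called, against 27.4% of all tested genes (14.0% higher and 13.4% lower), and the difference was not tested. At an unadjusted edgeR p of 0.05 or less, SYNE2 (0.15) was higher and LMNA (-0.12) lower as well. SUN2 (-0.28, SE 0.055), LMNB1 (-0.20, SE 0.0484), LBR (-0.19, SE 0.0494) and SUN1 (-0.14, SE 0.0447) were the 4 with the smallest p. The count that fell was 2 without knockdown replicate 1, and 3 without knockdown replicate 2 or 3. Without control replicate 2, 1 gene of the list rose, and without replicate 2 of both groups 2 rose and 3 fell. SUN1 did not pass without control replicate 3 or any 1 of the knockdown libraries (edgeR adjusted p of 0.0678 to 0.0871), nor LBR without knockdown replicate 1 (edgeR adjusted p = 0.0555).

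**Figure D4:**
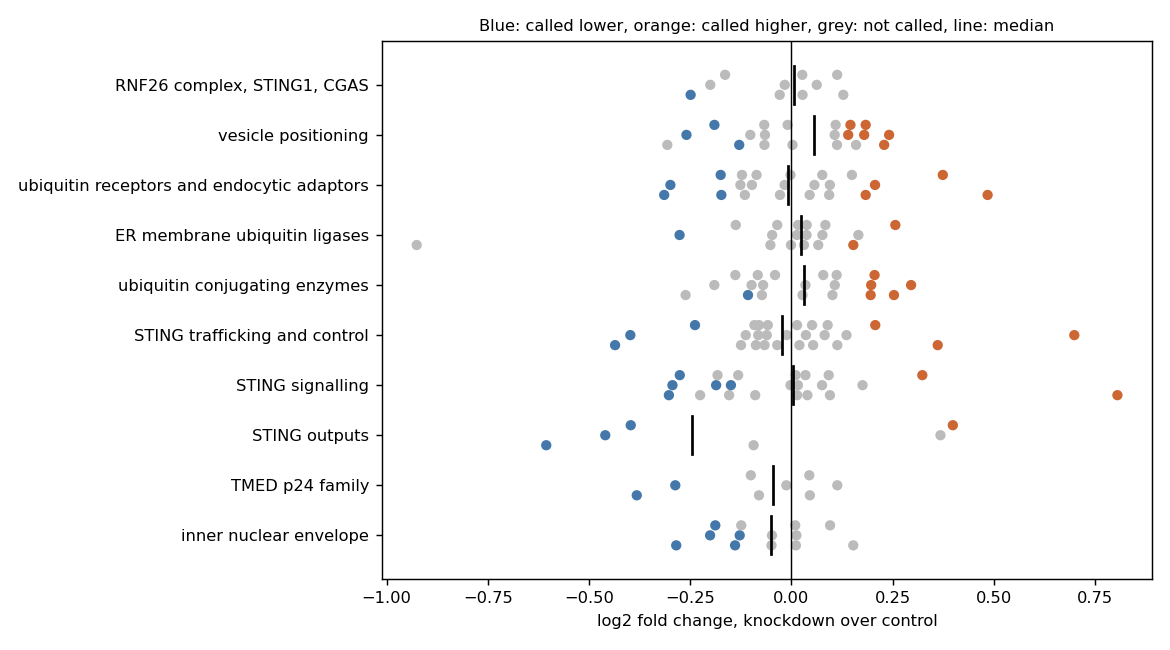
Log2 fold change of knockdown over control (horizontal axis) for every tested gene of each list, as points coloured by call, with the list's median as a black line. The medians lie between -0.05 and 0.05 for all lists but the STING outputs (-0.25), where 3 of 6 genes fell, and ARF1 (0.70) and ABCC1 (0.81) are the points farthest to the right.

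**Figure D5:**
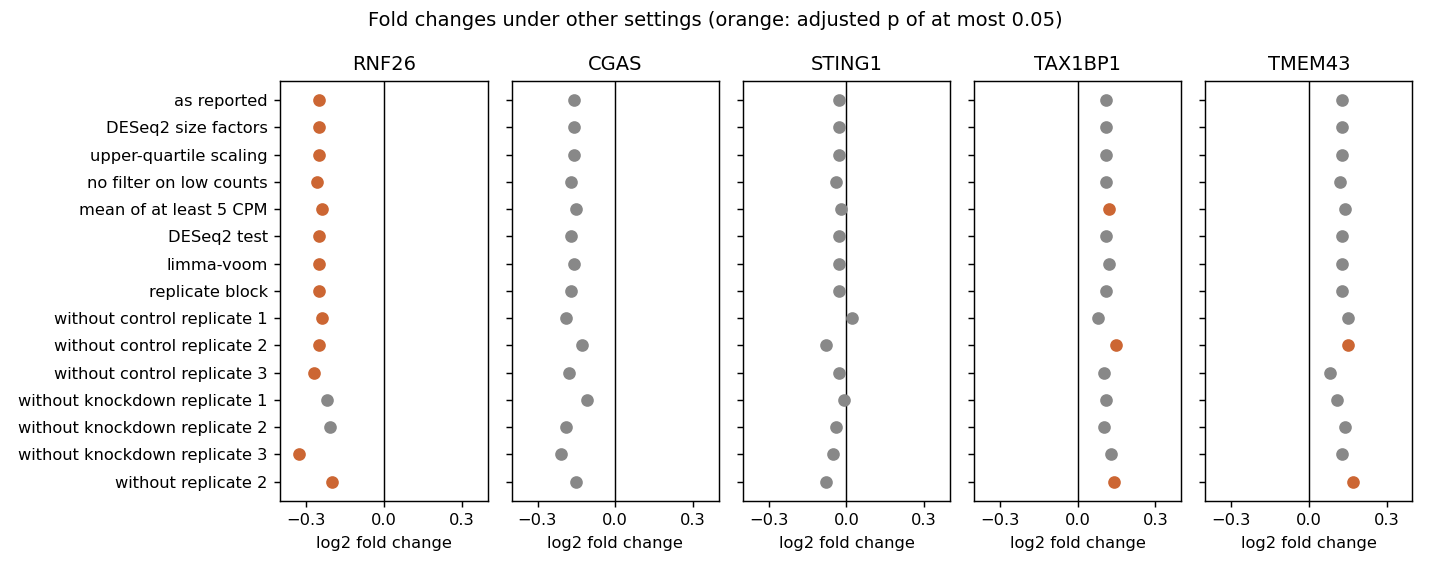
Log2 fold change (horizontal axes) of RNF26, CGAS, STING1, TAX1BP1 and TMEM43 under each scaling, filter, test and left-out library (vertical axis), in orange where the adjusted p was at most 0.05. RNF26 stays between -0.33 and -0.20, STING1 between -0.08 and 0.02, and TAX1BP1 and TMEM43 are called without control replicate 2.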

How the data were processed

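RNA of 6 libraries of A498 cells was measured, 3 control and 3 knockdown, grouped by their titles. The authors deposited counts of read pairs per gene, made with featureCounts 2.0.1 in paired mode over exons of Ensembl release 107 of GRCh38, per the file headers, with no strand option set although the kit is directional per the labels' protocols. Alignment names contain hisat, with no version in the header. The build is hg38 per the submitters' processing notes.

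Counts were tested with edgeR 4.0.16 (R 4.3.3): filterByExpr, TMM scaling, and the 2-sided quasi-likelihood test (glmQLFTest), Benjamini-Hochberg adjusted over all 15476 tested genes and a call at 0.05. The fit was tested on simulated data. Intervals are 95% from the fit and not adjusted. Coordinates and lengths are of GENCODE 29, and promoters are RefSeq's. Alternatives were DESeq2 1.42.0, limma-voom (limma 3.58.1), other scalings and filters, the replicate number as a block and left-out libraries. The members and lists were chosen with earlier results of these data known. Named were the 10 members, PTPRZ1, SQSTM1, USP15, TMEM33, TBK1 and IRF3, up to 4 called genes of each list in each direction, by smallest p, the cell type markers, and the 5 genes most like RNF26 and STING1. Partners that overlap a member, UBE2J2, SYNE2, LMNA, IFIT2, CXCL10, IFNB1, IFNL1 and CCL5 were named after their values were seen.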

Additional observations from a re-analysis of the deposited data

How the results depend on the processing

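RNF26 was lower under all 14 alternatives and passed under 12, with a log2 fold change from -0.33 to -0.20 over the fits that leave out libraries. It did not pass without knockdown replicate 1 (-0.22) or knockdown replicate 2 (-0.21). The number of members called lower was 0 to 1 in those fits and the number called higher 0 to 2, with 2 without control replicate 2 and without replicate 2 of both groups. TAX1BP1 passed at 0.12 with genes of at least 5 CPM on average (then 1 member was called higher), and ran from 0.08 to 0.15 with libraries left out. TMEM43 ran from 0.08 to 0.17. Values near 0 changed sign: TOLLIP ran from -0.08 to 0.06 and STING1 from -0.08 to 0.02 with libraries left out. TBK1 was 0.01 with genes of at least 5 CPM, 0.00 in limma-voom, and -0.05 to 0.04 with libraries left out. TMEM33 passed only without replicate 2 of both groups (-0.15, edgeR adjusted p = 0.041). None of these values of TOLLIP, STING1 or TBK1 passed. The cause of these changes was not tested.

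Over all genes, 3 scalings gave 2156 to 2164 higher and 2079 to 2090 lower, and left-out libraries 1633 to 2264 higher and 1530 to 2161 lower. In the replicate block fit RNF26 was at -0.25 (edgeR adjusted p = 0.0148), 2123 genes were higher and 1978 lower, and of the members 0 were higher and 1 lower. The block ended the calls of DCTN1 (edgeR adjusted p = 0.0563) and UBA1 (edgeR adjusted p = 0.0846). Among the 58 list genes followed through the alternatives it ended no other call. List genes beyond these were only counted per list, and some of them lost their call too. With the block 5 genes of vesicle positioning were called higher, against 6 as reported. STING signalling genes called lower were 4 and nuclear envelope genes called lower 4, each against 5 as reported. Other named genes, such as the cell type markers, were not followed. Same-numbered libraries deviated together weakly (r = 0.0226 to 0.0333). Each library correlated best with its own number, a hint from the data and not from the design. Genes of ER membrane ligases called lower were 1 as reported, 0 with DESeq2 and 2 without a filter. Conjugating enzymes called lower were 1 as reported and 0 to 4 elsewhere. STING signalling genes called lower were 5 as reported and 2 to 6 elsewhere, STING transport genes called lower 3 and 3 to 5, and nuclear envelope genes called lower 5 and 2 to 5. Depth limits TMED1 most, with 207 to 248 counts a library.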
